A study of Arabidopsis thaliana with 12 samples.

Results

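Formate dehydrogenase (FDH, AT5G14780) and the aldehyde dehydrogenase ALDH7B4 (AT1G54100) were followed across 4 treatments of Arabidopsis T87 cells. The probe sets were found by gene annotation. Each gene had 1 probe set that names it alone and 0 that name several genes, so 2 genes of 13286 named by probe sets with 1 gene are described. T87 is a suspension culture line of the Col-0 background that grows as undifferentiated cells, so a response here belongs to cultured cells and not to a plant organ. All groups were 5 days old and were sampled 20 hours after treatment. Control cells received ethanol, ABA cells received 50 µM abscisic acid (ABA), DMTU cells received ethanol and 5 mM dimethylthiourea (DMTU), and ABA+DMTU cells received 50 µM ABA and 5 mM DMTU. Each group had 3 Affymetrix arrays, which limits the precision. Nothing in the labels tells if the replicates are separate cultures.

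ABA is the plant hormone of drought and seed dormancy, and it changes the expression of many genes of dehydration tolerance. FDH is a mitochondrial enzyme that oxidises formate to carbon dioxide while reducing NAD, and it belongs to the D-2-hydroxyacid dehydrogenase family. ALDH7B4 belongs to the aldehyde dehydrogenase superfamily, whose enzymes oxidise reactive aldehydes to acids. Its family, known in animals as antiquitin, oxidises the semialdehyde that arises when lysine is broken down. Both are known in Arabidopsis as genes of the stress response. DMTU scavenges hydrogen peroxide, and the study asked what it does to gene activation by ABA.

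Both genes were at high levels with ABA and at lower levels without it, whether or not DMTU was present. They parted in the arrays with DMTU. FDH lay lower with DMTU alone than in control arrays and somewhat higher with both agents than with ABA, so that its ABA difference was larger with DMTU. For ALDH7B4 the DMTU differences were -0.02 without ABA and -0.15 with it, each smaller than its standard error of 0.21. The genes were chosen by their levels in these 4 groups, so the levels and differences of both are a description with no test. Cultures are bulk samples, in which fewer cells expressing a gene and less RNA of it per cell cannot be told apart.

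FDH had levels of 8.99, 9.01 and 8.85 in the 3 control arrays, on the log2 scale of the deposited values. With ABA it had 12.99, 12.81 and 12.89, with DMTU 7.49, 7.45 and 7.75, and with both agents 13.25, 13.28 and 13.29. The 4 groups did not overlap: the DMTU arrays were lowest, then control, then ABA, and the ABA+DMTU arrays were highest. The group means were 7.56 ± 0.16, 8.95 ± 0.09, 12.90 ± 0.09 and 13.27 ± 0.02 in that order (SD, n = 3). The narrowest gap lay between ABA and ABA+DMTU, where the lowest array of the higher group stood 0.26 above the highest of the lower one. The gap was 1.10 between DMTU and control, and 3.80 between control and ABA. The share of all probe sets whose groups separate in this way was not counted, so nothing is read from the lack of overlap.

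ALDH7B4 had levels of 10.02, 9.21 and 9.36 in control arrays and of 11.47, 10.90 and 11.05 with ABA. It had 9.64, 9.56 and 9.33 with DMTU, and 11.17, 10.85 and 10.96 with both agents. The levels fell into a lower pair of groups without ABA and a higher pair with it, which did not overlap. The share of all probe sets with this pattern was not counted either, and nothing is read from it. The means of the lower pair were 9.51 ± 0.16 (DMTU) and 9.53 ± 0.43 (control), and those of the higher pair 10.99 ± 0.16 (ABA+DMTU) and 11.14 ± 0.29 (ABA; SD, n = 3). Within each pair the ranges overlapped, and the means differed by 0.02 and 0.15, less than the spread between replicates. In all 4 groups the array numbered 1 was the highest for this gene, by most in control (0.49 above the group mean) and ABA (0.33 above it).

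**Figure D1:**
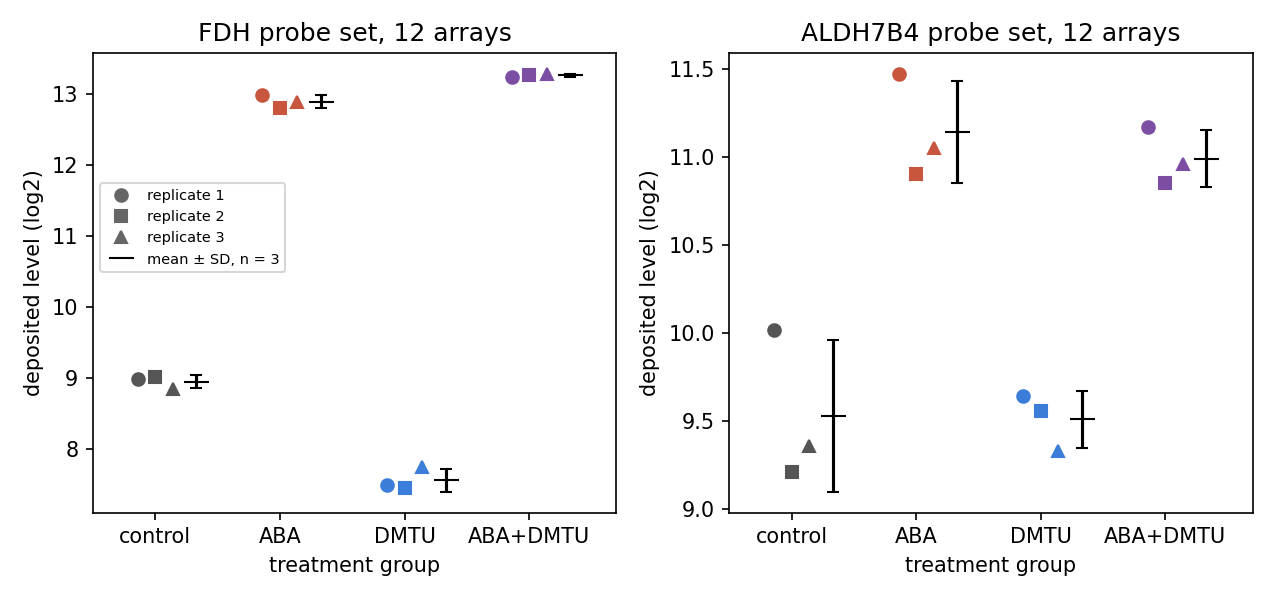
Deposited log2 levels (vertical axes, which differ in range and do not start at 0) of the FDH and ALDH7B4 probe sets in the 12 arrays, by treatment group (horizontal axis). Symbols are single arrays by replicate number, and bars beside them are the mean ± SD of 3 arrays. The means of FDH run from 7.56 in DMTU to 13.27 in ABA+DMTU, and those of ALDH7B4 from 9.51 in DMTU to 11.14 in ABA.

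In ABA against control, FDH differed by 3.94 ± 0.10 (standard error of the fit), which is 15.4-fold. ALDH7B4 differed by 1.61 ± 0.21, or 3.06-fold. Limma called 35.2% of all probe sets changed in this comparison at an adjusted p under 0.05, 15.5% of all higher with ABA and 19.8% lower. These were 3518 and 4496 probe sets, and 5036 and 3522 with arrays centred on their medians. Neither gene's range overlapped between the groups, and since these values led to the choice of the genes, nothing is read from that. A difference as high as that of FDH was reached by 0.708% of probe sets, and one as high as that of ALDH7B4 by 3.9%.

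The same comparison in cells with DMTU used other arrays. There FDH differed by 5.71 ± 0.10, or 52.4-fold, and ranked number 17 of all 22746 probe sets from the top. ALDH7B4 differed by 1.49 ± 0.21, or 2.81-fold, close to its value without DMTU. Limma called 39.4% of probe sets in this comparison, 18.8% higher and 20.6% lower. Centring turned these 4274 and 4682 probe sets into 6753 and 3765.

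DMTU alone against control gave a difference of -1.39 ± 0.10 for FDH, a level 2.62-fold lower with DMTU. For ALDH7B4 it was -0.02 ± 0.21. Limma called 17.6% of probe sets here, 9.39% higher and 8.26% lower, and 1.61% had a difference as low as that of FDH. Among cells with ABA, DMTU went with an FDH difference of 0.38 ± 0.10, or 1.3-fold higher, and 27.0% of probe sets differed by at least that much in either direction. Limma called 14.2%, 7.36% higher and 6.86% lower. ALDH7B4 differed by -0.15 ± 0.21. Of 3 control pairs that report on RNA quality, 1 did not overlap between arrays with and without DMTU, both with and without ABA: the 3' probe set of a ubiquitin control exceeded its 5' probe set on the log2 scale by 0.92 ± 0.07 without treatment and by 0.67 ± 0.04 after ABA, but by 1.36 ± 0.07 after DMTU and 1.10 ± 0.07 after both (SD, n = 3). The actin pair gave 3.20 ± 0.46, 2.65 ± 0.09, 3.58 ± 0.12 and 3.31 ± 0.07 in the same order, which overlapped between control and DMTU arrays and not between ABA and ABA+DMTU arrays. The GAPDH pair gave 0.45 ± 0.10, 0.59 ± 0.07, 0.41 ± 0.19 and 0.64 ± 0.45, with overlap in both comparisons. Between arrays with and without ABA the ubiquitin and actin pairs did not overlap, both without and with DMTU, and were lower with ABA. The GAPDH pair overlapped there too. The part of RNA quality in the ABA and DMTU differences was not tested. The labels name no batch, and a step that only the arrays with DMTU shared cannot be told apart from DMTU.

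The interaction is the ABA difference with DMTU minus the ABA difference without it. For FDH it was 1.77 ± 0.15. If the ABA and DMTU differences of FDH had simply added on the log2 scale, the ABA+DMTU level would have been 11.51, where 13.27 was measured. Most of that distance came from the starting level, which was 1.39 lower in the DMTU mean than in the control mean, and the rest from the ABA+DMTU level, which was 0.38 above that of ABA. The largest values of the ABA+DMTU arrays were 13.95 to 14.23, so FDH lay near the top of their scale, where no measure of saturation was used here. For ALDH7B4 the interaction was -0.12 ± 0.30, with a level of 11.12 if the differences had added and 10.99 measured. An interaction was called by limma for 2.8% of probe sets, with 1.16% above 0 and 1.65% below it.

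**Figure D2:**
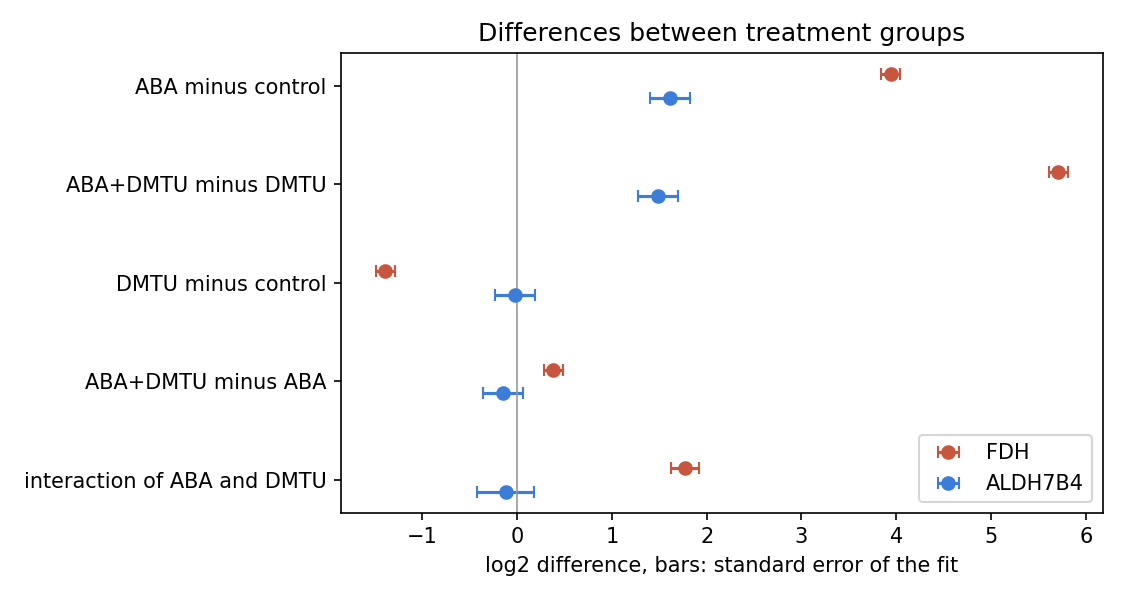
Log2 differences (horizontal axis) of FDH and ALDH7B4 in 5 comparisons (vertical axis), with bars for the standard error of the fit over 12 arrays. The ABA differences of FDH are 3.94 without and 5.71 with DMTU, and those of ALDH7B4 are 1.61 and 1.49.

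Over all probe sets, the arrays numbered 1 of control and of ABA stood furthest apart from their groups. The SD of the log2 differences was 0.565 and 0.55 from control array 1 to the other control arrays, which were 0.167 from each other. For ABA array 1 it was 0.505 and 0.465, where the other ABA arrays were 0.174 from each other. The groups with DMTU had arrays apart by less. ABA+DMTU array 1 had 0.4 and 0.406, beside 0.244 between the others, and DMTU array 3 had 0.353 and 0.316, beside 0.21. Without the arrays numbered 1 of control and ABA, the ABA difference was 3.92 for FDH and 1.69 for ALDH7B4, and the interaction 1.79 and -0.21. The difference of ALDH7B4 between DMTU and control turned from -0.02 ± 0.21 to 0.22 ± 0.13 without them (standard errors of the fits). Its within-group SD was 0.28 over all 12 arrays, which include those 2. Replicates of FDH lay closer, with a within-group SD of 0.10, and 11.4% of probe sets had a smaller one. For ALDH7B4 that share was 77.9%, and the median SD over all probe sets was 0.19.

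The other genes around both enzymes were taken from 5 lists, of which 42 genes had a probe set of their own. In ABA against control 22 of these rose and 4 fell, and in ABA+DMTU against DMTU 23 rose and 1 fell (limma, adjusted p under 0.05 over all probe sets). Of all probe sets, 15.5% were higher and 19.8% lower in the first comparison, and 18.8% and 20.6% in the second. The 4 falls were lost with arrays centred on their medians (adjusted p from 0.0532 to 0.215), as was the fall with DMTU (0.315). The median differences of the 42 genes were 0.42 and 0.54, beside 0.01 and 0.03 over all probe sets. All lists were chosen with earlier results of these data known. How far their counts and medians lie from those of all probe sets is therefore a description and no test of the lists. For the interaction 0 of the 42 passed with limma, where 2.8% of all probe sets did. An unadjusted p under 0.05 was reached by 6 (15.1% of all probe sets did). With array quality weights, which called 13.6% of all probe sets, 5 passed. The replicate number as a block also gave 0, and called 2.56% of all.

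The list of lysine and branched-chain amino acid breakdown, to which ALDH7B4 belongs, had 13 other measured genes. With ABA 10 of them rose and 0 fell, with a median of 0.95, where 15.5% of all probe sets were called higher. With DMTU present 10 rose and 0 fell, with a median of 0.88, where 18.8% were called higher. Without control replicate 2 the count without DMTU was 7, the lowest with any 1 array left out.

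LKR/SDH (AT4G33150), the enzyme that starts lysine breakdown and acts before the ALDH7 step, went from a level of 7.90 ± 0.79 in control to 12.24 ± 0.43 in ABA arrays (SD, n = 3). Its difference was 4.33 ± 0.35 (limma, adjusted p = 3.56e-06). With DMTU it went from 6.87 ± 0.38 to 12.10 ± 0.13, a difference of 5.23 ± 0.35 (adjusted p = 7.57e-07). Its size was above that of ALDH7B4 in both comparisons. AT4G20930 rose by 2.36 ± 0.23 and 2.68 ± 0.23 without and with DMTU. D2HGDH, which oxidises D-2-hydroxyglutarate, rose by 1.75 ± 0.20 and 2.17 ± 0.20, and MCCA of leucine breakdown by 1.37 ± 0.32 and 1.24 ± 0.32 (adjusted p of 0.00847 or less for these 3 genes in both). ALDH6B2, the other aldehyde dehydrogenase of this list, had -0.28 ± 0.12 and -0.03 ± 0.12 and did not pass.

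In the aldehyde dehydrogenase family, which holds enzymes of several substrates, 7 members beside ALDH7B4 were measured. With ABA 1 rose and 2 fell, where 15.5% of all probe sets were called higher and 19.8% lower. In the presence of DMTU 2 rose and 0 fell with ABA, where the shares were 18.8% and 20.6%. The medians were -0.32 and 0.09. ALDH10A9, of the betaine aldehyde dehydrogenases, rose in both, by 0.46 ± 0.09 (limma, adjusted p = 0.00178) and 0.53 ± 0.09 (adjusted p = 0.00058). ALDH11A3, the non-phosphorylating glyceraldehyde-3-phosphate dehydrogenase, rose with ABA in the presence of DMTU, by 2.10 ± 0.61 (adjusted p = 0.0176), and had -0.32 ± 0.61 without it. That call was lost without DMTU replicate 3 (0.0655) or ABA+DMTU replicate 1 (0.0678), and its interaction of 2.42 ± 0.87 was not called (adjusted p = 0.197), except with array quality weights (0.0106) or without both arrays numbered 1 of control and ABA (0.0121). ALDH2C4, an enzyme of ferulate and sinapate synthesis, fell with ABA, with a difference of -0.91 ± 0.29 (adjusted p = 0.0322), as did ALDH10A8 with -0.41 ± 0.14 (adjusted p = 0.0476). Neither fall passed with arrays centred on their medians (0.0532 and 0.21). The falls counted were 0 without control replicate 2, control replicate 3, ABA replicate 1 or ABA replicate 2. In the presence of DMTU the ABA difference of ALDH2C4 was 0.31 ± 0.29 and was not called (adjusted p = 0.462). In ABA+DMTU against ABA it was higher by 1.59 ± 0.29 (limma, adjusted p = 0.00467), a call that held in 18 of 18 alternatives. Its interaction of 1.22 ± 0.42 was not called (adjusted p = 0.173), except with array quality weights (0.0058).

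FDH's own family, the D-2-hydroxyacid dehydrogenases, had 5 other measured genes, of which 3 rose and 1 fell both with ABA alone and with ABA in the presence of DMTU. The shares of all probe sets were 15.5% higher and 19.8% lower alone, and 18.8% and 20.6% with DMTU. The medians were 0.61 and 1.00, below the FDH differences of 3.94 and 5.71. AT1G72190 rose by 1.20 ± 0.16 (limma, adjusted p = 0.000147) without DMTU and AT1G79870 by 0.61 ± 0.15 (adjusted p = 0.00841). AT2G45630 rose by 0.74 ± 0.15 (adjusted p = 0.00252) and had 0.21 ± 0.15 with DMTU. The photorespiratory hydroxypyruvate reductase HPR rose by 1.34 ± 0.18 with DMTU and had 0.41 ± 0.18 without it, and its interaction of 0.92 ± 0.26 had an adjusted p of 0.0918. Without ABA replicate 1 its ABA difference was 0.67 and was called (adjusted p = 0.000792). The interaction was then called too (0.0373), as it was with array quality weights (0.00889) and without both arrays numbered 1 of control and ABA (0.0223). AN (ANGUSTIFOLIA), a regulator of cell shape, was the gene that fell, with -0.32 ± 0.11 (adjusted p = 0.0379) and -0.30 ± 0.11 with DMTU (adjusted p = 0.0461). The first call held in 9 of 18 alternatives and the second in 4 of 18. Among others, both were lost with arrays centred on their medians (0.215 and 0.315) and with the replicate block (0.0627 and 0.0732).

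Of the other genes of formate and one-carbon metabolism, 9 were measured. With ABA 4 rose and 1 fell, and 3 rose and 0 fell with DMTU present, with medians of 0.08 in both. Of all probe sets 15.5% were higher and 19.8% lower, and 18.8% and 20.6% with DMTU present. AT5G17380 rose most, by 1.25 ± 0.12 (limma, adjusted p = 1.29e-05) and 1.35 ± 0.12 (adjusted p = 5.83e-06). 5-FCL, which acts on 5-formyltetrahydrofolate, rose by 0.67 ± 0.10 (adjusted p = 0.000417) without DMTU. AT2G35120 fell, with a difference of -1.06 ± 0.35 (adjusted p = 0.0332), which was lost with arrays centred on their medians (0.0618) and without control replicate 2 (0.124), control replicate 3 (0.134) or ABA replicate 1 (0.125). AT3G12290 rose by 0.47 ± 0.16 (adjusted p = 0.0391), a call that held in 10 of 18 alternatives and was lost with quantile normalization (0.0817) and without control replicate 1 or 2, ABA replicate 2 or 3, DMTU replicate 1, or ABA+DMTU replicate 2 or 3 (0.0527 to 0.15). Without control replicate 2, ABA replicate 2 or ABA replicate 3 only 2 of the 9 rose with ABA. In DMTU against control, where FDH was lower, AT5G47435 and AT4G17360 were higher, by 0.62 ± 0.12 (adjusted p = 0.0052) and 0.70 ± 0.19 (adjusted p = 0.0268). The first call held in 18 of 18 alternatives. The second was lost without control replicate 1 or 3 or any 1 of the DMTU arrays (0.0548 to 0.0812).

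Of 9 measured genes of aldehyde and methylglyoxal detoxification, 4 rose with ABA and 5 with ABA in the presence of DMTU, and 0 fell, where 15.5% and 18.8% of all probe sets were called higher. The alkenal reductase AER rose by 0.99 ± 0.24 (limma, adjusted p = 0.00716) and the alkenal oxidoreductase AOR by 0.81 ± 0.14. GLX2-1 and GLX2-5, listed here as glyoxalases by name only, rose by 0.91 ± 0.14 and 0.87 ± 0.24. AOR was the one of these called lower in DMTU than in control arrays, with -0.81 ± 0.14. Its ABA difference with DMTU was 1.47 ± 0.14. FDH, which was given no test, was lower in DMTU arrays too. The 5 that rose with ABA in the presence of DMTU were AER, AOR, GLX2-1, GLY2 and AT1G67280. GLX2-5 was not called there (limma, adjusted p = 0.0731), though it was in 4 of 18 alternatives. The count of 5 was 3 without DMTU replicate 1, DMTU replicate 2 or ABA+DMTU replicate 2, and 2 without DMTU replicate 3 or ABA+DMTU replicate 3. The GLX2-5 call was lost without control replicate 2 (adjusted p = 0.0603), control replicate 3 (0.0635) or ABA replicate 1 (0.0546). Of embryo regulators and seed storage genes (10 listed) and of xylem markers (7 listed), kinds of cell identity a culture could take, 0 had a probe set that the annotation names alone, so neither list could be read here.

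**Figure D3:**
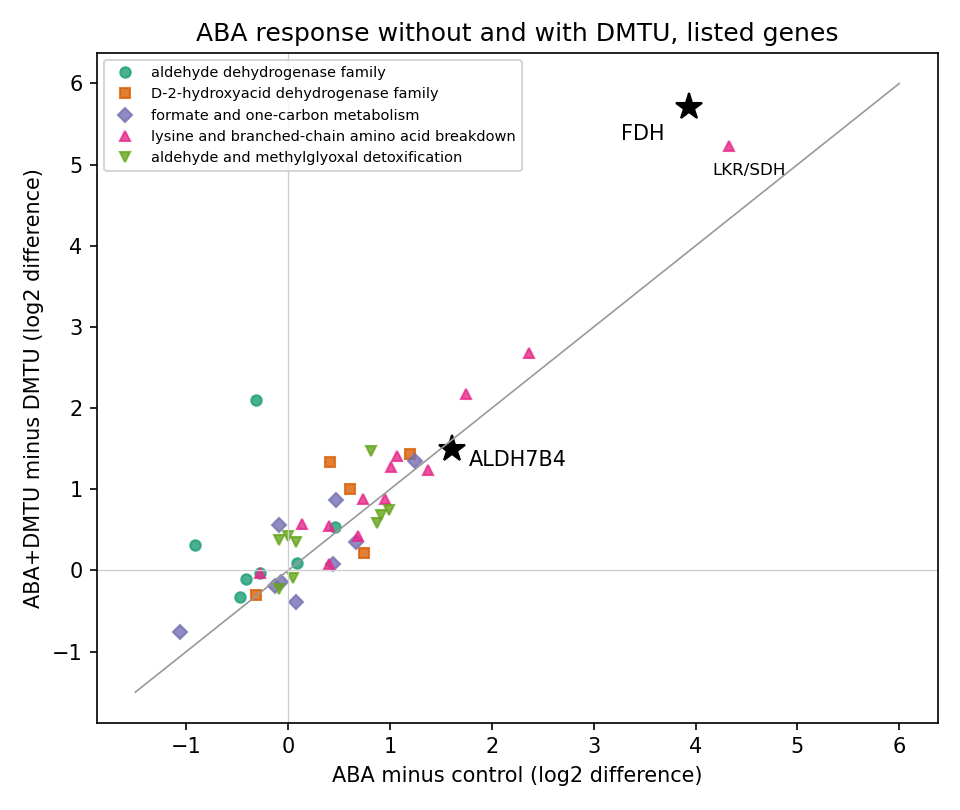
Log2 difference of ABA minus control (horizontal axis) against ABA+DMTU minus DMTU (vertical axis) for the listed genes, coloured by list, with FDH and ALDH7B4 as stars and equal values on the grey line. A gene on several lists is drawn for each, and the axes share no arrays. FDH (3.94 and 5.71) lies above the line, next to LKR/SDH (4.33 and 5.23), and ALDH7B4 (1.61 and 1.49) lies close to the line.

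Likeness of pattern was measured as the root mean square difference of the 12 log2 levels, after each probe set was centred on its own mean, among 13512 other probe sets with 1 gene. The 5 nearest to FDH were AT5G02230 (0.40), AT2G40460 (0.45), LKR/SDH (0.47), the auxin-conjugating GH3.5, listed as WES1 (0.49), and AT1G23040 (0.52). Since they were chosen for their levels, their differences are given as a description. All 5 were lower in DMTU than in control arrays, from -0.63 for AT5G02230 to -1.69 for AT1G23040, and all 5 had a larger ABA difference with DMTU. AT2G40460 had an interaction of 1.57, the nearest of the 5 to the 1.77 of FDH, and the others had 0.59 to 0.90. The level with both agents exceeded that with ABA for AT2G40460 (0.76), as for FDH, and not for the other 4 (-0.04 to -0.90).

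The nearest to ALDH7B4 were AT3G51990 (0.13), AT2G40420 (0.16), AT4G40080 (0.17), the ornithine aminotransferase DELTA-OAT (0.17) and AT2G16790 (0.18). These had ABA differences of 1.20 to 1.68 without DMTU and 1.43 to 1.71 with it, and interactions of -0.25 to 0.26. In DMTU against control they had -0.30 to 0.04. FDH and ALDH7B4 themselves were 1.74 apart: ALDH7B4 was number 370 in likeness to FDH, while FDH was number 12960 in likeness to ALDH7B4. The levels were centred but not scaled, so the size of a change counts in this measure as well as its direction. A low rank therefore does not mean an opposite pattern, and both genes were higher with ABA.

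**Figure D4:**
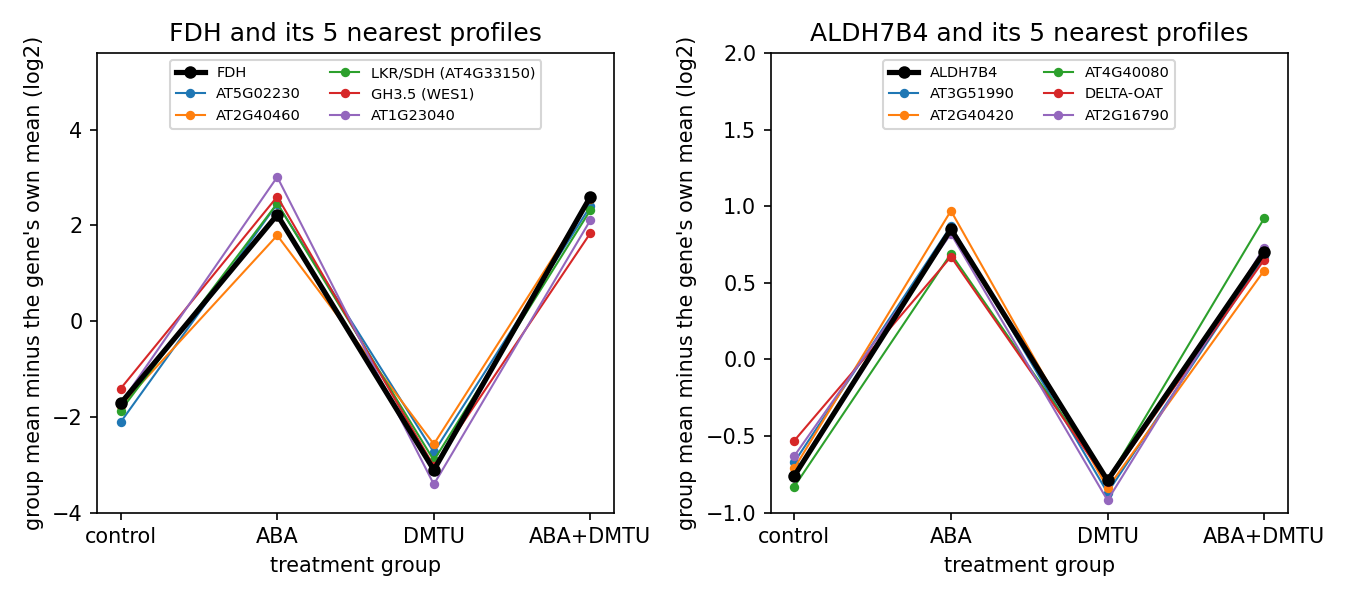
Group means minus the gene's own mean over 12 arrays (vertical axes, log2, which differ in range) in the 4 treatment groups (horizontal axis), for FDH and ALDH7B4 (black) and the 5 genes nearest to each; lines join the groups of 1 gene and have no order in time. FDH runs from -3.11 in DMTU to 2.60 in ABA+DMTU, and ALDH7B4 from -0.79 to 0.85.

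The genes beside each on its chromosome are given for comparison. FDH lies on chromosome 5 between AT5G14770, which was not called in any of the 5 comparisons (adjusted p from 0.119 to 0.931, limma), and AT5G14790. The latter had -0.49 ± 0.11 with ABA (adjusted p = 0.00385) and 0.63 ± 0.11 in ABA+DMTU against ABA (adjusted p = 0.00308), opposite in sign to FDH in the first. ALDH7B4 lies on chromosome 1. Its nearest measured neighbour before it, AT1G54070, was not called (adjusted p from 0.841 to 0.997). AT1G54110, next after ALDH7B4, had 0.33 ± 0.16 with ABA (adjusted p = 0.141). With ABA in the presence of DMTU it had 0.69 ± 0.16 (adjusted p = 0.0045). AT5G14770 and AT1G54070 were dim, with group means of 4.10 to 4.37 and 3.96 to 4.01. The lower quartiles of the arrays were 3.84 to 3.98, so the lack of calls for these genes says little.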

How the data were processed

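The authors' deposited values are log2 probe set levels of 12 single-colour arrays. RMA and limma are named per the submitters' processing notes, with no version or role, and whether all arrays were normalized together is not given in the sources used here. Array medians lay between 5.78 and 6.05, and nothing was rescaled. Each array's group and number were read from its title. Of 22810 probe sets, 64 controls were left out. Platform annotation named 1 gene for 13513 probe sets, several for 503 and none for 8730, and 13436 were matched to a RefSeq gene table (TAIR10.1), used for names and gene order only.

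A total of 22746 remained. Limma 3.58.1 in R 4.3.3 fitted a mean per group over all arrays (lmFit, eBayes, two-sided, Benjamini-Hochberg over 22746 probe sets, threshold 0.05). The fit was tested on simulated data. Since the origin of the replicates is unstated, p-values reflect only how far these arrays scatter, which may be technical. The 2 genes and the gene lists were chosen with earlier results of these data known. Up to 4 called genes per list with the largest ABA differences were named by rule, and others after their values were seen.

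Replicate numbers were checked as pairs. Deviations of same-numbered control and ABA arrays correlated across probe sets (r = 0.52, 0.42 and 0.39), but control 2 with ABA 3 (0.41) and control 3 with ABA 2 (0.44) did as well, so the values set array 1 apart and do not match numbers 2 and 3. No other pair of groups correlated at every number. Alternatives were array centring, quantile normalization, array weights, a replicate block, a filter on dim probe sets and leaving out arrays. Tables and plots used Python 3.11.15, pandas 2.3.3 and matplotlib 3.10.9.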

Additional observations from a re-analysis of the deposited data

How the results depend on the processing

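Of 170 alternative values of the FDH and ALDH7B4 differences, 168 stayed within the spread between replicates. The other 2 came from centring each array on its median, which gave FDH 4.09 with ABA and 5.88 with ABA in the presence of DMTU. Leaving out 1 array gave FDH 3.89 to 3.99 and 5.65 to 5.80 in these comparisons, -1.48 to -1.33 for DMTU and 1.71 to 1.86 for the interaction. ALDH7B4 ran from 1.45 to 1.86, 1.40 to 1.56, -0.18 to 0.22 and -0.37 to 0.04, so its DMTU difference and interaction have no settled sign. With the replicate number as a block the differences were 3.94 and 1.61 with ABA, with standard errors of 0.11 for FDH and 0.14 for ALDH7B4.

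Array quality weights raised the probe sets called to 12891 (ABA), 8008 (DMTU), 7542 (ABA+DMTU against ABA) and 3097 (interaction), from 8014, 4013, 3234 and 638. The interaction count was 1243 without both arrays numbered 1 of control and ABA, and 291 to 795 with 1 array left out (291 when DMTU 2 was dropped, 343 for ABA 3, 370 for ABA+DMTU 2, 385 for control 3, 395 for DMTU 1, 411 for ABA+DMTU 3 and 416 for control 2). For DMTU against control the range was 2559 (without DMTU 2) to 4537. The block changed no count by over 1.5 times (8068 for ABA, 583 for the interaction). The cause was not tested. Centring moved the median ABA difference of all probe sets from 0.01 to 0.16, and from 0.03 to 0.20 with DMTU.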
